A study of Mus musculus with 7 samples.

Results

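Hox genes encode homeodomain transcription factors and lie in 4 clusters, Hoxa to Hoxd. Their transcripts were followed in mouse bladder before and after maturation. Of 38 Hox genes listed for the comparison, 33 had at least 1 probe set that the platform annotation gives to that gene alone, among 18193 genes with such a probe set. They comprised 9 genes of the Hoxa cluster, 9 of Hoxb, 7 of Hoxc and 8 of Hoxd. Where a gene had several probe sets, the one with the highest mean over the 7 arrays stood for it. Hoxa6, Hoxc11 and Hoxc12 had no probe set of their own and were not analysed here. Hoxb8 shared its probe set with Hoxb7, and Hoxd4 shared both of its probe sets with Hoxd3.

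Total RNA was amplified in 2 rounds and hybridised to Affymetrix whole-genome mouse arrays, read in 1 colour. The bladders came from male FVB/N mice of the line SMGA/EGFP, in which the promoter of Actg2, the smooth muscle gamma-actin gene, drives enhanced green fluorescent protein. There were 3 adult bladders (Theiler stage 28) and 3 bladders of postnatal day 1, here P1 (Theiler stage 27), each dissected whole and not pooled. The reference was 1 array of entire wild-type P1 mice, pooled from 4 males and 4 females, although its title names bladders. The reference thus differed from the bladders in genotype, sex and pooling too, which cannot be told apart from tissue. Adult tissue was kept in liquid nitrogen and P1 tissue in a freezer, so storage and stage cannot be told apart. The labels do not tie any array to a litter or a culture, and p-values measure the spread between these samples.

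Within a cluster, Hox genes are numbered from the 3′ end by paralogue group. Genes of low number are active early and towards the head, and genes of high number later and towards the tail. The genes of the last groups pattern the hindgut, the urogenital sinus from which the bladder forms, the genital tract and the limbs. Hox proteins bind DNA together with cofactors of the Pbx and Meis families, and trithorax and Polycomb proteins keep the clusters active or silent.

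The tissue labels were checked with marker genes. Actg2 itself read 45507 to 95597 in the adult bladders, 62904 to 80933 in the P1 bladders and 13225 in the newborn reference, in units of array intensity. Upk2, which encodes a urothelial plaque protein, read 1763 to 2565, 1382 to 1685 and 596 in the same groups. The summed intensity of 8 smooth muscle markers was 289114 to 441257 in adults, 286628 to 374074 at P1 and 71642 in the reference. Transcripts of male accessory glands were high on adult arrays 1 and 3, with sums over 10 markers of 10644 and 10667, against 453 on adult array 2, 304 to 587 at P1 and 1264 in the reference. On control probes, adult array 2, P1 array 3 and the reference had the highest spike-in signal, 2.35, 1.68 and 1.82 times that of the lowest array. The ratio of 3′ to 5′ signal of Actb, a sign of RNA quality, was 3.84 to 5.15 in adults, 1.85 to 3.70 at P1 and 3.09 in the reference. That of Gapdh lay the other way, at 15.3 to 19.6 in adults, 19.1 to 30.9 at P1 and 21.4 in the reference. In whole organs, fewer cells of a type and less RNA per cell cannot be told apart.

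The results turned mainly on Hoxa9, Hoxa10, Hoxd10 and Hoxd13, which read higher in bladder than in the whole newborn. Their promoters are shown for the letters that members with a like pattern had or did not have in common. Each window runs from 250 bases before to 50 after the start of transcription, 5′ to 3′ on the gene's strand, from RefSeq on GRCm38.p6. Hoxa9 lies at chr6:52227321-52227620 and Hoxa10 at chr6:52240805-52241104, both on the minus strand, and for Hoxa10 the first of 2 windows is given. Hoxd10 lies at chr2:74691641-74691940 and Hoxd13 at chr2:74667975-74668274, both on the plus strand. Capitals mark matches to a searched motif.
Hoxa9: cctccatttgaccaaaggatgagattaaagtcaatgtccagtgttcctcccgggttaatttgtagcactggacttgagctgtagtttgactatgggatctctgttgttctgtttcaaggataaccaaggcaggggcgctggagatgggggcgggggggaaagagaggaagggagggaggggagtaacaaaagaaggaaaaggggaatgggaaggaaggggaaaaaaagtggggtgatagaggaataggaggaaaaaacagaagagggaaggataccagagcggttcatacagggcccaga
Hoxa10: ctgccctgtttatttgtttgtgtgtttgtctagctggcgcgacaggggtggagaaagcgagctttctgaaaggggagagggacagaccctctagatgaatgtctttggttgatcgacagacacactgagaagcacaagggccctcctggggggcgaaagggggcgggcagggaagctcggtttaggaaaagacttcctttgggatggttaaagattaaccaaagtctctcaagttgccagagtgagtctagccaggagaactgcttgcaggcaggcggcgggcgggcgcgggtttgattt
Hoxd10: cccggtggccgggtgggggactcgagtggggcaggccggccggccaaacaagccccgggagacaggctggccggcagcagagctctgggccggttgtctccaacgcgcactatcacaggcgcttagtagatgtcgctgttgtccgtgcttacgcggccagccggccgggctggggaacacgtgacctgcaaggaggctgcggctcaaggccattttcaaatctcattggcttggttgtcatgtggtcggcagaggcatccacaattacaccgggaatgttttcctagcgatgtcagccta
Hoxd13: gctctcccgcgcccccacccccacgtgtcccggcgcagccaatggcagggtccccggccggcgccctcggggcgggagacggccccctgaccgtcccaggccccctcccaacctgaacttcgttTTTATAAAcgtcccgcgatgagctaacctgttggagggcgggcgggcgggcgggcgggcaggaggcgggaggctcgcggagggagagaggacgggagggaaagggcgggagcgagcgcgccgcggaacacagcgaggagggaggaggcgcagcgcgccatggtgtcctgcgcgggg

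Such windows were found by symbol for 19 of the 33 genes. The Hoxd13 window held 37 CG pairs, the Hoxd10 window 22, the Hoxa10 window 12 and the Hoxa9 window 4, against a median of 7 over 32851 promoters. A search on both strands for TATAAA, the TATA box, found 2 overlapping matches in Hoxd13, which begin 126 bases before the start on the minus strand and 124 before it on the plus strand. This motif occurs in 13.6% of all promoter windows. No match was found in the other shown windows, nor in any shown window for TTTATNG (a posterior Hox site, in 10.9% of promoters), TGATNNAT (a Pbx-Hox site, 8.85%) or TGACAG (a Meis site, 19.2%). Letters in a window are a description, and nothing was measured of binding there.

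The first question was which Hox genes read differently in newborn bladder than in the newborn body. The P1 bladder was higher in Hoxa9, Hoxa10 and Hoxd13, all of the posterior end of their clusters, by about 9- to 10-fold. It was lower in Hoxc8. Genes are not ranked by intensity, since probe sets differ in how brightly they bind.

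Hoxa9 (probe set 1455626_at), a posterior gene also known for its role in blood stem cells, read 13078, 14029 and 17528 in the P1 bladders and 1467 in the newborn reference. All 3 bladder arrays were far above the reference, 10.1-fold in the mean. On the log2(intensity + 49) scale the difference was 3.29 ± 0.32 (SE), with adjusted p = 0.000726 (limma, Benjamini-Hochberg over all probe sets tested, 3 arrays against 1). Hoxa10 (1431475_a_at), which patterns the genital tract, read 6387, 8904 and 5625 at P1 and 737 in the reference. That was 9.46-fold, or 3.13 ± 0.45 on the log2 scale, with adjusted p = 0.00419 (limma). Hoxd13 (1440626_at), which with Hoxa13 patterns the urogenital sinus and the digits, read 8395, 9306 and 8204 at P1 and 964 in the reference. The 3 P1 arrays lay close together and 8.96-fold above it, a log2 difference of 3.10 ± 0.33 with adjusted p = 0.00108 (limma).

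Hoxc8 (1452412_at), a gene of the thoracic region that patterns ribs and motor neurons, read 48.7, 229 and 195 at P1 and 1647 in the reference. Here the reference stood above all bladder arrays. Only 1 of the P1 arrays was over its array's median, and another lay under the added constant, so no fold is given. The log2 difference was -3.17 ± 0.78 with adjusted p = 0.0433 (limma), and the call was lost without any one of P1 array 1 (0.068), P1 array 2 (0.0555), adult array 1 (0.0746) or adult array 3 (0.0586). It was also lost with median centring (0.0705), quantile normalisation (0.0509), a pseudocount of 16 (0.0853) and no filter (0.0549), in all in 8 of 15 alternatives. Adult arrays enter because all 7 arrays give the spread, and the single reference was assumed to vary like the bladders.

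In all, 3 of 21 Hox genes tested were called higher at P1 than in the reference, beside 3.19% of all 13745 genes tested. One was called lower, beside 6.39% of all genes. At an unadjusted p under 0.05, 6 were higher and 4 lower. The shares of all genes hold for the adjusted threshold only. None was counted at the unadjusted one, here or further on, so unadjusted counts are a description. The median log2 difference was 0.07 for the Hox genes tested and -0.00 for all genes tested. The other 12 Hox genes did not pass the filter, which asked for a value over the array median on at least 1 of the 4 arrays.

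Several genes missed the threshold with large differences. Hoxd10, Hoxb3 and Hoxb13 were over the array median in the P1 bladders and not in the reference, and Hoxc13 in the reference and in no P1 bladder. They entered the test through the group where they were high, so their p-values here are a description. Hoxd10 (1418606_at), a limb and lumbar spinal cord gene, read 1731, 1097 and 1122 at P1 and 405 in the reference, a log2 difference of 1.56 ± 0.41 with adjusted p = 0.0556 (limma). Hoxb3 (1456229_at), of the hindbrain group, differed by 1.64 ± 0.47 with adjusted p = 0.0698. With median centring, which moved the median of all genes tested to 0.68, Hoxd10 (adjusted p = 0.0223), Hoxb3 (0.0247) and Hoxb13 (0.0388) were called higher too. The same genes were called higher with quantile normalisation, and Hoxd10 with averaged probe sets. Without the bladder arrays with most spike-in (adult array 2, P1 array 3), Hoxd10 (0.0436) and Hoxb3 (0.0464) were called. Hoxc13 (1425874_at), which acts in hair and nail, was at -2.45 ± 0.65 with adjusted p = 0.0561. It was called lower without P1 array 3 (0.0443), and without a trend in the variance (0.0179). Hoxc13 was also called lower with a pseudocount of 160, no filter or averaged probe sets, in all in 5 of 14 alternatives.

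**Figure D1:**
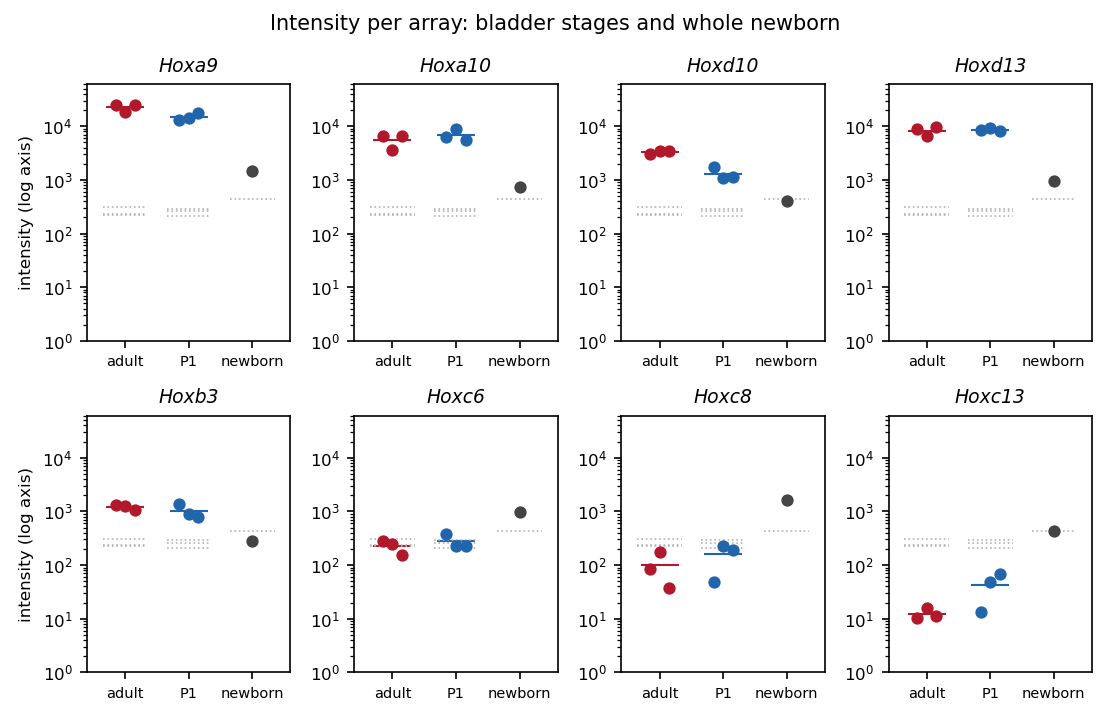
Array intensity on a log axis for 8 Hox genes in adult bladder, P1 bladder and the whole newborn reference; each point is 1 array, solid lines are group means and dotted lines are the medians of the arrays. The reference point lies below all 6 bladder points for Hoxa9, Hoxa10, Hoxd10, Hoxd13 and Hoxb3, and above all 6 for Hoxc6, Hoxc8 and Hoxc13.

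The adult bladder was then set against the same reference, which it shares with the P1 comparison, so both sets of values rest on 1 array. Of 22 Hox genes tested, 5 were called higher in adult bladder, beside 6.10% of all 13504 genes tested: Hoxa9, Hoxa10, Hoxb3, Hoxd10 and Hoxd13. Hoxc8 and Hoxc13 were called lower, beside 9.23% of all genes. Hoxc8 and Hoxc13 were over the array median in the reference and in no adult bladder, and Hoxb3 and Hoxd10 in the adult bladders and not in the reference. They entered the test through the group where they were high, so these counts are a description. With no filter the same 7 genes were called. The median was 0.06 for the Hox genes tested and -0.03 for all genes.

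The adult arrays read 24672, 18297 and 25198 for Hoxa9, which was 15.5-fold above the reference, with a log2 difference of 3.89 ± 0.32 and adjusted p = 0.000256 (limma). For Hoxd13 they read 8819, 6464 and 9496, which was 8.57-fold, or 3.02 ± 0.33, with adjusted p = 0.000917 (limma). Hoxa10 read 6664, 3587 and 6530, with adult array 2 the lowest, a 7.59-fold excess with a log2 difference of 2.79 ± 0.45 and adjusted p = 0.005 (limma). Hoxd10 read 3070, 3468 and 3438, close together and 8.2-fold above the reference, at 2.89 ± 0.42 with adjusted p = 0.00295 (limma). Hoxb3 read 1324, 1266 and 1048 against 285 in the reference, a log2 difference of 1.91 ± 0.47 with adjusted p = 0.0324 (limma).

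Hoxc8 read 83.4, 177 and 38.2 in the adults, with a log2 difference from the reference of -3.62 ± 0.79 and adjusted p = 0.0197 (limma). Hoxc13 read 10.2, 16.03 and 11.3 against 438 in the reference, a difference of -2.99 ± 0.66 with adjusted p = 0.0215 (limma). These adult values lay under the added constant of 49, so the fold for Hoxc13 is not given from them. Without adult array 1 or adult array 3, the calls of Hoxb3 (0.0927 and 0.0785), Hoxc8 (0.0509 and 0.0542) and Hoxc13 (0.0542 and 0.0572) were lost. Without both of those arrays, which hold the accessory gland transcripts and leave 1 adult array, Hoxa10 (0.0668) and Hoxd10 (0.0542) lost their calls too, while adult array 2 alone read 3587 and 3468 for these genes. With median centring Hoxc13 was not called (0.0623).

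The difference from the newborn body was then set out by cluster. In the Hoxc cluster the reference stood above all 6 bladder arrays in 7 of 7 genes with the arrays as scaled by the authors, in 4 of 7 after quantile normalisation and in 5 of 7 after median centring. Over all 18193 genes these shares were 28.2%, 18.6% and 11.8%. Those 4 were Hoxc4, Hoxc6, Hoxc8 and Hoxc13, and centring added Hoxc5. Hoxc5 was over the array median on no array. As scaled by the authors, the reference lay within the bladder range on the other probe sets of Hoxc5. It did so too on the second one of Hoxc6 (1427361_at), and stood above all bladders on a further one (1427454_at). The median log2 difference of P1 from the reference was -1.89 over the Hoxc genes, -1.24 after quantile normalisation and -1.21 after centring. Over the Hoxa genes it was 0.60, and 1.12 and 1.28 after those steps. For Hoxd it was 0.08, 0.42 and 0.76, and for Hoxb it changed sign, from -0.12 to 0.55 and 0.57. These cluster medians hold genes at background and carry no test.

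Genes of like number were next set side by side across clusters. Of the genes of groups 9 to 13, the reference was below all 6 bladder arrays in 4 of 4 Hoxa genes (Hoxa9, Hoxa10, Hoxa11, Hoxa13) and in 3 of 5 Hoxd genes (Hoxd9, Hoxd10, Hoxd13). As scaled by the authors, the reference lay within the bladder range for Hoxb9 and Hoxb13. The 7 Hoxa and Hoxd genes kept their position after either scaling step, which added Hoxd12 and Hoxb13. The reference had the highest array median, 434 against 209 to 312 in the bladders, so centring lowered it against every bladder array. A position below all 6 was therefore bound to hold after centring, and the same shift works against a position above all 6. Over all genes the reference was below all 6 bladder arrays in 18.1% as scaled by the authors, 28.0% after quantile normalisation and 46.0% after centring. It was above all 6 in 3 of 3 Hoxc genes (Hoxc9, Hoxc10, Hoxc13), of which only Hoxc13 remained so after quantile normalisation or centring. In group 10, Hoxa10 and Hoxd10 were higher in adult bladder than in the reference, whereas Hoxc10 read 150, 300.1 and 566 in adults, 475, 402 and 312 at P1 and 712 in the reference. Its P1 difference from the reference was -0.79 with adjusted p = 0.54 (limma), so Hoxc10 itself did not pass the test. In group 9, Hoxc9 read 66.6 to 271 in bladder against 326. Its P1 difference of -0.60 became 0.08 with centring, so its direction depends on how the arrays are scaled.

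Among the 24 Hox genes with a value over the median on at least 1 array, the reference lay below all 6 bladder arrays in 8, beside 21.7% of all such genes. It lay above all 6 in 10 of them, beside 25.0% of all such genes. This balance depended on the scaling: quantile normalisation gave 10 below and 4 above, beside 30.2% and 20.1% of all such genes, and centring 11 below and 4 above, beside 47.9% and 11.7%. Summed markers of tissues outside the bladder were higher in the reference. The summed markers of cartilage and bone were 36440 in the reference, 465 to 972 at P1 and 157 to 340 in adults, over 5 measured of 6 listed genes. For the central nervous system the sums were 2929, 314 to 455 and 152 to 527, also over 5 of 6. Among these Gfap went the other way, at 39.4 in the reference, 189 to 301 at P1 and 45.9 to 285 in adults. Smooth muscle markers were lower in the reference, as given above. The part of these tissues in the Hox differences was not tested.

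**Figure D2:**
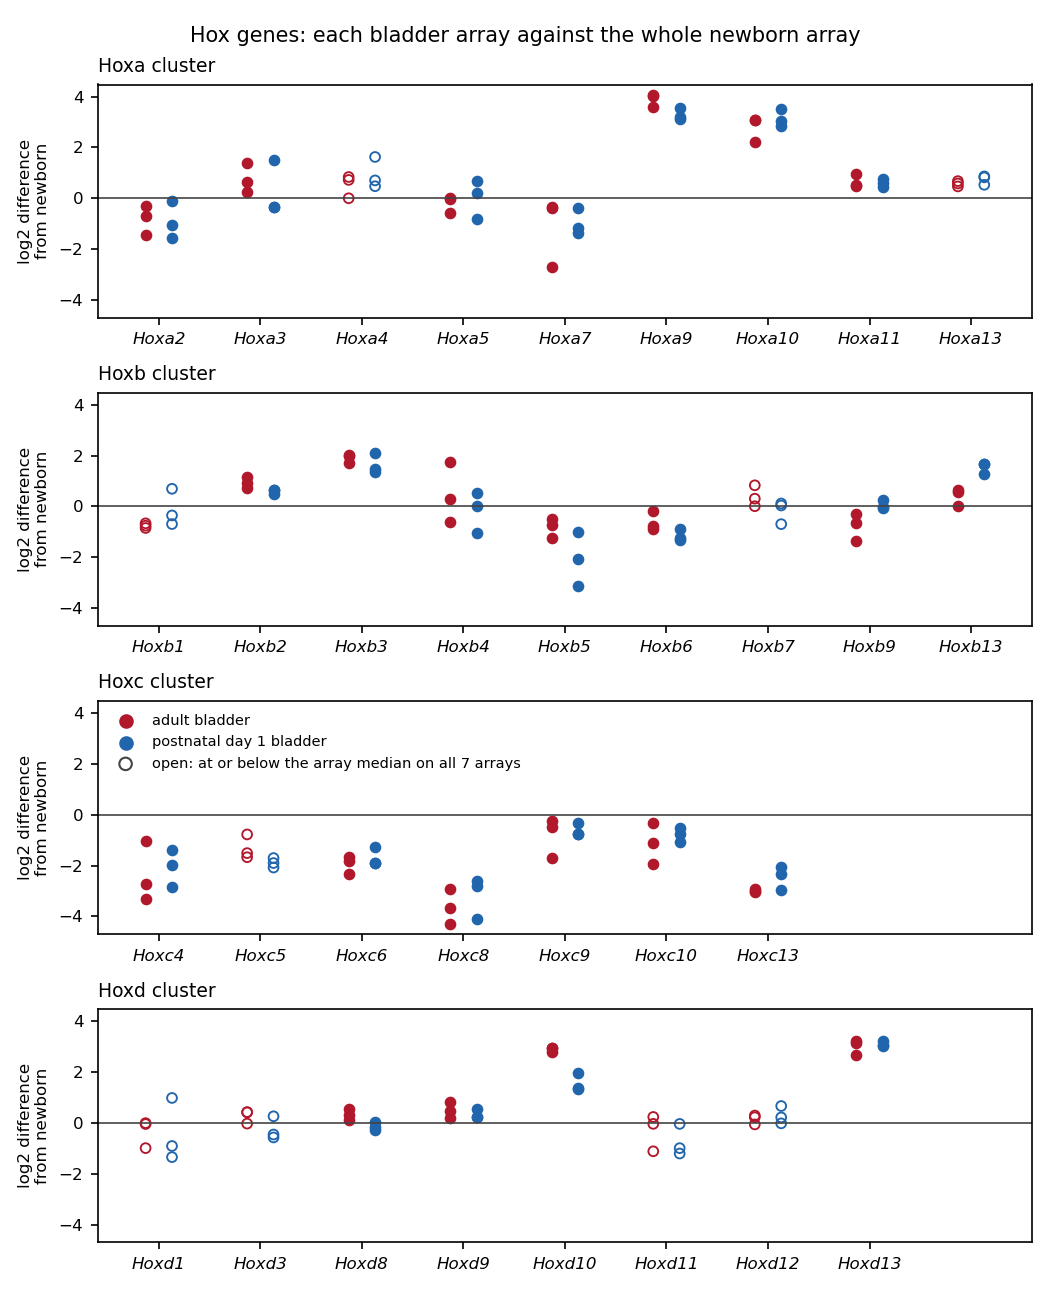
Log2 difference of each bladder array from the whole newborn array for 33 Hox genes, in the order of the paralogue groups within each cluster; red points are the 3 adult and blue points the 3 P1 bladders, and open points are genes at or below the array median on all 7 arrays. All 7 Hoxc genes lie below 0 on every bladder array as scaled by the authors, whereas Hoxa9, Hoxa10, Hoxd10 and Hoxd13 lie above 0.

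The second question was which Hox genes changed between the newborn and the adult bladder. Hoxd10 was higher in adults, and no other Hox gene passed the test. It read 3070, 3468 and 3438 in adults (3325 ± 222, SD, n = 3) and 1731, 1097 and 1122 at P1 (1317 ± 359, SD, n = 3). The groups did not overlap, and the adult mean was 2.53-fold higher. The log2 difference was 1.33 ± 0.29, with a 95% interval of 0.69 to 1.98 and adjusted p = 0.0238 (limma on the 6 bladder arrays).

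The Hoxd10 difference ranged from 1.21 to 1.54 over the 17 alternatives, and its call held in 11 of them. It was lost without adult array 1 (0.0821), adult array 3 (0.114), P1 array 2 (0.084) or P1 array 3 (0.063), without the pair of bladder arrays with most spike-in (0.0581), and without the 2 adult arrays with accessory gland transcripts (0.222). Hoxd10 read 3468 on adult array 2, which lacked those transcripts, and 3070 and 3438 on adult arrays 1 and 3. The part of accessory gland tissue in the Hoxd10 difference was not tested.

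The count was 1 of 15 Hox genes tested called higher in adults, beside 4.02% of all 11930 genes tested, and 0 called lower, beside 4.95% (limma). At an unadjusted p under 0.05, 2 were higher and 1 lower, with no share of all genes counted at that threshold. The median log2 difference was 0.16 for the Hox genes tested and -0.01 for all genes tested. Adult and P1 ranges did not overlap in 5 genes that were higher in adults, beside 15.8% of all genes: Hoxa9, Hoxb2, Hoxb6, Hoxd8 and Hoxd10. They did not overlap in Hoxb13 the other way, beside 16.5% of all genes. Hoxb6 passed the filter through the adult arrays alone and Hoxb13 through the P1 arrays alone, so these counts are a description. Other markers moved with stage as well: the sum of 7 skeletal muscle markers was 17442 to 18255 in adults and 74956 to 111313 at P1, and that of 7 neuronal markers was 4714 to 5682 and 9750 to 13521. Their part in the stage differences was not tested.

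Hoxa9 was 22723 ± 3841 (SD, n = 3) in adults and 14878 ± 2343 (SD, n = 3) at P1, a log2 difference of 0.61 ± 0.22 with adjusted p = 0.13 (limma). Without adult array 2 it passed the test at 0.75 (0.0416), and without that array and P1 array 3, the bladder arrays with most spike-in, at 0.88 (0.0228). Hoxb13, a gene of prostate and hindgut, read 159, 148 and 83.2 in adults and 369, 273 and 373 at P1. Its log2 difference of -1.13 ± 0.42 had adjusted p = 0.139 (limma), although the groups were well apart. Hoxd8 read 3161, 3693 and 2756 in adults and 2579, 2295 and 2069 at P1, and differed by 0.46 with adjusted p = 0.331.

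Hoxd13 and Hoxa10, high above the reference at both stages, gave no call between stages. Hoxd13 was 8260 ± 1592 (SD, n = 3) in adults and 8635 ± 589 (SD, n = 3) at P1, with a log2 difference of -0.08 and a 95% interval from -0.61 to 0.45. For Hoxa10 the means were 5594 ± 1739 and 6972 ± 1716 (SD, n = 3 each), with a log2 difference of -0.34 and an interval of -1.05 to 0.37. Hoxa11, a gene of kidney and uterus, differed by 0.05, from -0.67 to 0.77. Over the 15 genes tested the 95% interval reached up to 1.27 on the log2 scale to either side of the difference, for Hoxa3.

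**Figure D3:**
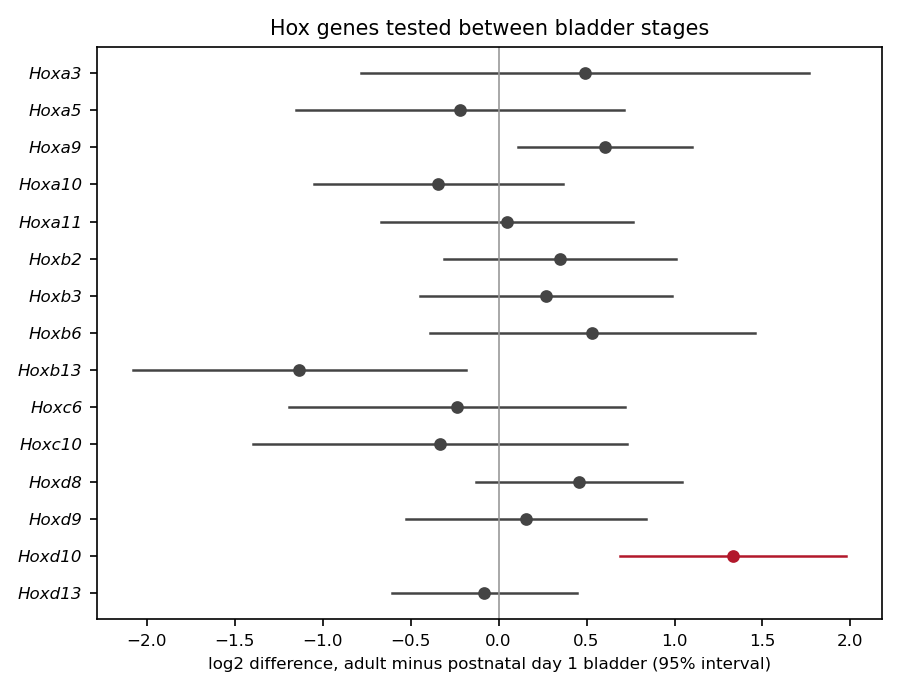
Log2 difference between adult and P1 bladder for the 15 Hox genes tested, with 95% intervals from limma; the red gene passed the adjusted threshold of 0.05. Only the interval of Hoxd10, at 0.69 to 1.98, belongs to a called gene, and those of Hoxa9 and Hoxb13 exclude 0 without adjustment for the number of genes.

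The genes of paralogue group 13 differed among themselves. Hoxd13 was as above. Hoxa13 read 185 to 221 in adults, 195 to 258 at P1 and 120 in the reference, never over the median of its array, and was not tested. Hoxb13 was over the median in 3 of 3 P1 bladders and in no adult bladder, and its P1 difference from the reference of 83.2 was 1.54 ± 0.57 with adjusted p = 0.143 (limma). It entered that test through the P1 arrays alone. Hoxc13 was over the median in the reference alone.

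Of the remaining genes, Hoxa5, which acts in lung and ribs, was over the array median on all 7 arrays, with bladder values of 618 to 1806 and a reference of 1111. Hoxb2, a hindbrain gene, read 708 to 1172 against 496. Hoxd9 read 915 to 1425 against 782. Hoxa11 read 524 to 748 against 368. None of these passed a test against the reference as scaled by the authors, where the adjusted p of Hoxb2 in adults was 0.209. After quantile normalisation or centring, Hoxb2 was called higher in adults (0.0427 and 0.0469). In all, 10 of the 33 genes were over the array median in all 6 bladder arrays, beside 54.0% of all 18193 genes. By cluster these were 4 of 9 in Hoxa, 2 of 9 in Hoxb, 0 of 7 in Hoxc and 4 of 8 in Hoxd.

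Low or variable signal covered the rest. Hoxb5, Hoxb6, Hoxa2 and Hoxa7 read lower in all 6 bladders than in the reference, by log2 differences at P1 of -2.07, -1.15, -0.91 and -0.98, of which Hoxa7 was not tested at P1 and none was called. Without the same pair of arrays with most spike-in, Hoxb5 was called lower, at -2.61 (adjusted p = 0.0409), though it was tested at P1 through the reference alone, with 0 of 3 P1 arrays over the median. After quantile normalisation or centring the reference stood above all 6 bladders in none of these 4 genes. Hoxc4 read 21.7 to 292 in bladder against 652, and its P1 difference of -2.07, tested through the reference alone, had adjusted p = 0.225. Hoxc6 read 155 to 382 against 978, with -1.69 and adjusted p = 0.11. In adults Hoxc6 was at -1.93 (0.0611), and was called lower with a pseudocount of 160 (0.0348), with no trend (0.0405) and without the arrays with most spike-in (0.0497). Hoxa3, Hoxb4 and Hoxb9 had bladder values on both sides of the reference. A further 9 genes were over the median on no array, beside 22.2% of all genes: Hoxa4, Hoxa13, Hoxb1, Hoxb7, Hoxc5, Hoxd1, Hoxd3, Hoxd11 and Hoxd12. Without detection calls it was not determined which of them were present. The probe set that Hoxb7 and Hoxb8 share read 96.7 to 852 in bladder against 307. Those of Hoxd3 and Hoxd4 read 51.4 to 277 and 6.89 to 32.5 in the bladders.

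For 11 genes there was more than 1 probe set, and the other probe sets did not always go the same way. The second one of Hoxa9 (1421579_at) read 383 to 782 on every array, with a log2 difference from the reference of -0.26 at P1. The second one of Hoxd13 (1422239_at) was at 5.12 to 136 on all arrays and never over the median. Averaging a gene's probe sets moved Hoxa9 at P1 to 1.52 (adjusted p = 0.0119) and in adults to 1.89 (0.00288). It moved Hoxd13 at P1 to 1.41 (0.0406) and in adults to 0.95, where the call was lost (0.128). The second one of Hoxa10 (1446408_at) was higher in adults, at 2321, 1457 and 1637 against 542, 781 and 901 at P1, by 1.23 with adjusted p = 0.0514 (limma). That is the opposite sign to the -0.34 of its first probe set (1431475_a_at), and both were higher in adults than in the reference. Second probe sets also differed in sign from the first for Hoxa5 between stages (0.53 against -0.22). Against the reference they did so at P1 for Hoxa5 (-1.47), Hoxc6 (0.27) and Hoxd8 (0.53). In adults that of Hoxa9 did so, at -0.12 against 3.89 for the first. A further probe set of Hoxa3 (1452421_at) differed in sign in adults, at -0.24. The second one of Hoxa3 (1427433_s_at) had the sign of the first, at 1.27. The probe sets standing for Hoxa5 and Hoxc6 end in _x_at, a type that can bind related transcripts.

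The cofactors and regulators of the clusters were read from lists of other genes. Of the Hox cofactors of the Pbx and Meis families, 8 of 9 listed were measured. Meis1, a partner of the posterior Hox proteins, read 10940, 7751 and 12147 in adults, 8562, 9508 and 7538 at P1 and 1185 in the reference. It was above the reference by 2.79 ± 0.35 at P1 (adjusted p = 0.00215) and by 3.04 ± 0.35 in adults (0.00108, limma), with no overlap between bladder and reference. Meis2 was higher in adults by 1.23 ± 0.30 (adjusted p = 0.0306), and at P1 its difference of 1.11 had adjusted p = 0.0575. Of 6 cofactors tested, 1 was called higher at P1 and 2 in adults, none lower, with medians of 0.68 and 0.15, beside 3.19% and 6.10% of all genes called higher. Averaging over probe sets ended the calls of Meis1 (0.158 at P1 and 0.0674 in adults) and of Meis2 (0.651), and that of Meis2 was also lost without adult array 1 (0.0916) or adult array 3 (0.0825). Between stages 0 of 5 were called (limma), beside 4.02% of all genes called higher and 4.95% lower, and 1 was lower at an unadjusted p under 0.05.

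Among activators and trithorax genes, 12 of 13 were measured. Cdx2, an intestinal factor that activates Hox genes in the early embryo, read 11.5, 6.06 and 141 in adults, 43.4, 31.8 and 148 at P1 and 1411 in the reference. Its log2 difference was -3.68 at P1 (adjusted p = 0.0362) and -4.09 in adults (0.0181, limma), and it entered both tests through the reference alone, being over the array median in 0 of 6 bladders. With no filter it was called as well (0.0349 and 0.0183). The sum of 5 intestinal markers, Cdx2 among them, was 50408 in the reference and 107 to 2560 in the bladders. The P1 call of Cdx2 was lost without P1 array 1 (0.0733), P1 array 2 (0.0801) or adult array 1 (0.0567). Kmt2a, the methyltransferase that maintains Hox expression, was higher than the reference in adults by 1.86 ± 0.45 (adjusted p = 0.029, limma). It passed the filter through the adult arrays alone, being under the array median in the reference. Kmt2a was not called without adult array 1 (0.0865), without adult array 3 (0.104) or with probe sets averaged (0.83, 0.164). The list had 0 of 10 called higher and 1 lower at P1, 1 and 1 of 9 in adults, and 0 of 8 between stages (limma). Over all genes, 3.19% were called higher and 6.39% lower at P1, and 6.10% and 9.23% in adults. Between stages these shares were 4.02% and 4.95%, and 1 gene of the list was higher at an unadjusted p under 0.05.

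Polycomb genes, which silence the clusters, had 18 of 19 measured. Between stages 2 of 16 were called higher in adults and 2 lower, beside 4.02% and 4.95% of all genes, with a median of -0.10 over those tested. The paralogous methyltransferases Ezh1 and Ezh2 went opposite ways: Ezh1 read 2557, 2564 and 2496 in adults and 1086, 913 and 986 at P1, whereas Ezh2 read 2798, 2099 and 2707 in adults and 6132, 7007 and 4705 at P1. Neither gene's groups overlapped. The log2 differences were 1.31 ± 0.26 for Ezh1 (adjusted p = 0.0176) and -1.21 ± 0.27 for Ezh2 (0.0275, limma). Cbx7, a subunit that reads the silencing mark, was higher in adults by 1.68 ± 0.34 (0.0195), and Rnf2, a ubiquitin ligase, was lower, at -1.52 ± 0.35 (0.0307). Leaving out either adult array 3 or P1 array 2 ended all 4 of these calls, at adjusted p of 0.0923 and 0.0634 for Ezh1, 0.102 and 0.103 for Ezh2, 0.0820 and 0.0640 for Cbx7, and 0.122 and 0.0662 for Rnf2. Without adult array 1 those of Ezh1 (0.0801), Ezh2 (0.0822) and Cbx7 (0.0863) were lost, without P1 array 1 those of Ezh2 (0.0871) and Rnf2 (0.105), and without P1 array 3 that of Rnf2 (0.0717). With probe sets averaged, Ezh1 (0.249) and Rnf2 (0.397) were not called. Against the reference 0 of 17 were called at P1 (limma), beside 3.19% of all genes called higher and 6.39% lower. At an unadjusted p under 0.05, 4 were higher. In adults 3 of 16 were higher, beside 6.10% of all genes, and 0 lower, beside 9.23%. These were Cbx7 by 2.36, Phc3 by 1.98 and Cbx6 by 1.40 on the log2 scale. All 3 calls were lost without adult array 1 or adult array 3, and that of Cbx6 also without P1 array 2 (0.067). Cbx7 passed the filter through the adult arrays alone, being under the array median in the reference. With probe sets averaged, Cbx7, Phc3 and Cbx6 were at 0.31 (0.728), 0.65 (0.295) and 0.87 (0.121).

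**Figure D4:**
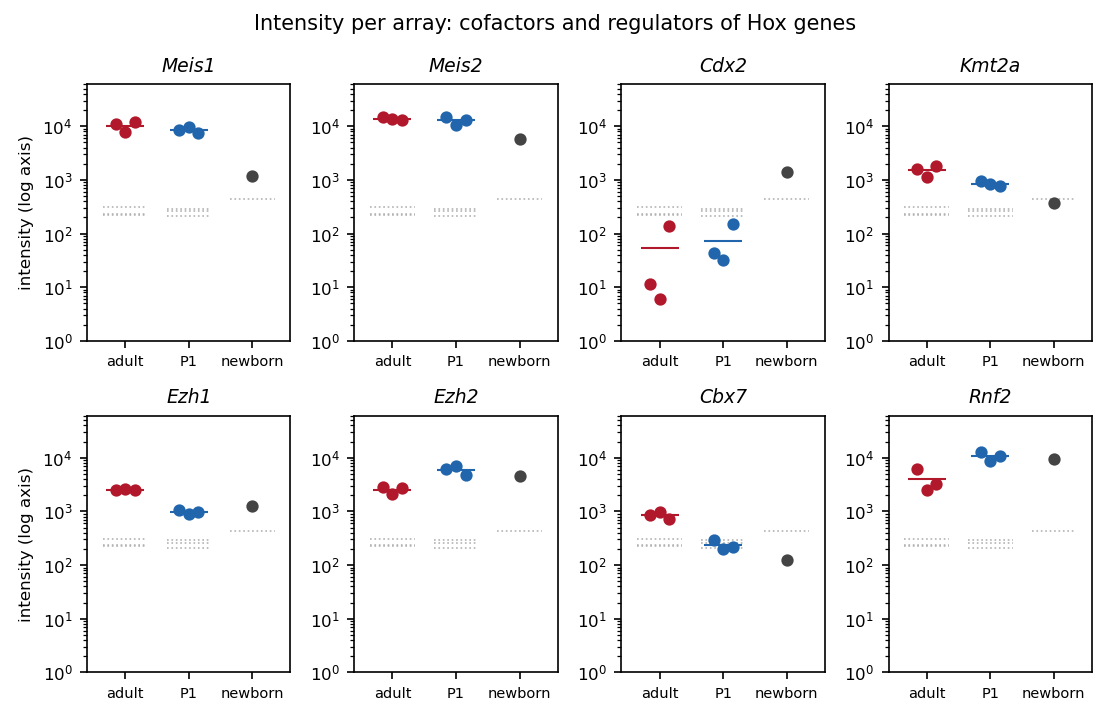
Array intensity on a log axis for 8 cofactors and regulators of Hox genes in the same groups; points are single arrays, solid lines group means and dotted lines array medians. Meis1 and Meis2 lie above the reference at both stages, Cdx2 lies below it, and Ezh1 and Ezh2 differ between stages in opposite directions.

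All 10 genes listed as neighbours of the clusters in the RefSeq order were measured, and 0 were called in any comparison (limma), of 8 tested between stages, 9 at P1 and 7 in adults against the reference. Over all genes, 4.02% were called higher and 4.95% lower between stages, 3.19% and 6.39% at P1, and 6.10% and 9.23% in adults. At an unadjusted p under 0.05, 1 of the neighbours passed in each comparison. Evx1, a homeobox gene next to Hoxa13, had the largest difference of those tested at P1 and between stages. It read 142, 265 and 142 in adults, 356, 374 and 551 at P1 and 56.8 in the reference. The P1 difference from the reference was 2.15 ± 0.58 (adjusted p = 0.0582), and that between stages -1.06 ± 0.41 (0.157). Evx1 entered both tests through the P1 arrays alone, where it was high, so these p-values are a description. All 3 adult values of Evx1 lay under all 3 P1 values, which was so for 16.5% of all genes.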

How the data were processed

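RNA of 7 samples was hybridised to 1 Affymetrix array each. Each deposited value is a linear intensity, made with GCOS per the submitters' processing notes, with no version and no detection call. Trimmed by 2% at either end, all arrays had the same mean, 1500.01, a common scaling by the authors. The summary method is not given in the sources used here. The number of arrays limits the precision.

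The arrays hold 45101 probe sets, with 64 controls left out. By the platform annotation, 34945 belong to 1 gene, 932 to several and 9160 to none. A constant of 49, the 20th percentile over the series, was added before taking log2, which understates fold changes of low genes. Tested were probe sets over the median of their array on at least 3 of 6 arrays (between stages) or at least 1 of 4 (against the reference). Fits were made in limma 3.58.1 under R 4.3.3, by lmFit and trended eBayes, two-sided, with Benjamini-Hochberg adjustment over all probe sets tested and calls at an adjusted p under 0.05. Shares of all genes count 1 probe set per gene. The stage fit held 6 arrays, and fits with the reference held all 7 in 3 groups. The scripts were tested on simulated data.

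The Hox genes and the lists of cofactors, activators, Polycomb genes, neighbours and markers were chosen with earlier results of these data known. Full values were given for called Hox genes and paralogue group 13, and up to 4 genes per other list by adjusted p, with exceptions for label checks and disagreeing probe sets. Promoters came from RefSeq, GRCm38.p6. Alternatives were pseudocounts of 16 and 160, quantile normalisation, median centring, no filter or one at the 70th percentile, no trend, averaged probe sets, 1 fit of 7 arrays, and fits without single arrays or pairs of arrays.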

Additional observations from a re-analysis of the deposited data

How the results depend on the processing

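No paired analysis was possible because the labels give the groups no shared replicate numbers. The 58 Hox results of the 3 comparisons, 12 of them called, were recomputed under up to 17 alternatives. Of 876 values, 801 kept their direction and side of the threshold, 29 lost and 22 gained a call, and 24 changed sign, none of these among the 12 called. Causes were not tested. The Hoxc results rest on 1 reference array and on low intensities without detection calls, and they move with the scaling of the arrays.

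The count of Hox genes higher in adults than at P1 (1) was 0 to 2 with single arrays left out and 0 without the 2 accessory gland arrays. The count higher at P1 than in the reference (3) was 6 with quantile normalisation, 6 with centring and 5 without the pair of bladder arrays with most spike-in. The count lower at P1 (1) was 1 with no filter too, where Hoxc13 took the place of Hoxc8. It was 0 with a pseudocount of 16, quantile normalisation or centring, 2 with a pseudocount of 160, no trend, averaged probe sets or without the spike-in arrays, and 0 to 2 with single arrays left out. The count higher in adults than in the reference (5) was 2 without the accessory gland arrays, 6 with quantile normalisation or centring (Hoxb2 added), and 4 with averaged probe sets or without adult array 1 or 3. The count lower (2) was 3 (Hoxc6 added) with a pseudocount of 160, no trend or without the spike-in arrays, 1 with a pseudocount of 16, quantile normalisation, centring or the 70th percentile filter, 0 without the accessory gland arrays, and 0 to 2 with single arrays left out.

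Over all genes, centring turned the split at P1 from 439 higher and 878 lower to 1059 and 570, and in adults from 824 and 1247 to 1689 and 824. Over all probe sets, quantile normalisation moved it from 650 and 1451 to 1186 and 1266 at P1, and from 1235 and 2020 to 1968 and 1839 in adults.

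Some values without a call changed sign. Between stages, single arrays left out gave -0.63 to 0.11 for Hoxa5, -0.095 to 0.13 for Hoxa11, -0.74 to 0.074 for Hoxc10, -0.0031 to 0.30 for Hoxd9 and -0.19 to 0.086 for Hoxd13. Averaged probe sets gave 0.16 for Hoxa5 and 0.44 for Hoxa10. Leaving out the spike-in arrays gave -0.026 for Hoxa11 and 0.0499 for Hoxd13, and leaving out the accessory gland arrays gave -0.14 for Hoxd9. At P1 against the reference, single arrays left out gave -0.30 to 0.44 for Hoxa5 and -0.023 to 0.12 for Hoxb9. Averaged probe sets gave -0.72 for Hoxa5 and 0.20 for Hoxd8, and centring gave 0.55 for Hoxd8. In adults against the reference, single arrays left out gave -0.30 to 0.0011 for Hoxa5, which was also at 0.0011 without the spike-in arrays. Quantile normalisation gave 0.12 for Hoxa5 and 0.0298 for Hoxb6, centring gave 0.48 and 0.0538, and averaged probe sets gave -0.24 for Hoxb4.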

Other observations

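Antisense transcripts of the Hox clusters were read from 3 genes chosen after their values were seen, so their p-values are a description. Hoxa11os, antisense to Hoxa11, read 1446, 747 and 1855 in adult bladders, 1641, 885 and 1410 at P1 and 156 in the whole newborn. All 6 bladder arrays were above the newborn, by 2.69 on the log2 scale at P1 (adjusted p = 0.0265, limma) and 2.68 in adults (0.0201). Hoxa11 itself differed by 0.60 and 0.65 without a call. In the newborn Hoxa11os was under the array median of 434, so it entered both tests through the bladders alone. The P1 call was lost without adult array 1 (0.0507) or P1 array 1 (0.0627), and the adult call without adult array 1 (0.0596) or adult array 3 (0.0635).

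Hoxd3os1 read 3889, 2152 and 3616 in adults, 1367, 1294 and 1355 at P1 and 1012 in the newborn. The adults were higher than P1 by 1.19 (adjusted p = 0.0457, limma), without overlap, and this call was lost in 10 of 17 alternatives, among them the omission of any 1 array other than adult array 2. With its probe sets averaged the difference was 0.17 (0.801). Hoxd3 read 129 to 194 in adults and 73.3 to 169 at P1, under the array median throughout. Hoxb5os read 284 to 761 in adults, 414 to 991 at P1 and 1998 in the newborn, with a log2 difference at P1 of -1.55 (adjusted p = 0.186), and Hoxb5 was at -2.07.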
